A study of Mus musculus with 2 samples.

Results

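Pro-B cells that carry Dntt were examined in single-cell RNA libraries from healing skull defects. They were chosen by their own counts, as barcodes with at least 200 detected genes, at most 20% mitochondrial UMIs, at least 2 UMIs of Dntt, at least 1 of Cd79a and none of Ms4a1. A UMI is a molecular tag that lets copies of the same RNA molecule be counted once. The levels of Dntt, Cd79a and Ms4a1 are therefore description only. This gave 434 of 22810 barcodes, 307 in the CGG-Cit library and 127 in the CGG library. Both libraries came from wild-type C57BL/6 mice with 2 mm defects in the parietal bone, collected 14 days after surgery. The defects were filled with CGG-Cit hydrogel in the one group and with CGG hydrogel in the other. The labels spell out neither name and do not say how many mice were pooled into a library. Each group is 1 library, so no difference between the hydrogels was tested, and every interval below is a 95% interval of counting error only.

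A pro-B cell is an early B lymphocyte precursor, normally made in bone marrow, that is assembling its immunoglobulin heavy chain gene. Rag1 and Rag2 cut the DNA, and Dntt encodes terminal transferase, which adds untemplated bases where the cut ends are joined. The new heavy chain is first paired with a surrogate light chain made by Vpreb1, Vpreb2 and Igll1, and this pre-B receptor signals through Cd79a and Cd79b. Dntt and the surrogate light chain are then switched off as the cell divides and moves on to its light chain genes.

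The 3 genes of the surrogate light chain lie on mouse chromosome 16, and they are among the genes that set these cells furthest apart from later B cells. Their promoter windows, 250 bases before to 50 after the annotated start, are shown because those of Vpreb1 and Vpreb2 share a stretch of nearly the same sequence. They are taken from RefSeq on GRCm38.p6, the build called mm10. The windows are chr16:16869206-16869505 on the minus strand for Vpreb1, chr16:17980315-17980614 on the plus strand for Vpreb2 and chr16:16863936-16864235 on the minus strand for Igll1. Capitals mark the E-box forms CAGCTG and CAGGTG, which E proteins such as Tcf3 can bind, and CCCNNGGG, a core of the motif of Ebf1, on either strand.
Vpreb1: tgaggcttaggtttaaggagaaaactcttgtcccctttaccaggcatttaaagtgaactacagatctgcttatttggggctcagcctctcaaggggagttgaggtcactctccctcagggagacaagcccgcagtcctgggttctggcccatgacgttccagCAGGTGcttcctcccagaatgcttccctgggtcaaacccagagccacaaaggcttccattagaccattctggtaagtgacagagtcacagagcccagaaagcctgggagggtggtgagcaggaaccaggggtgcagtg
Vpreb2: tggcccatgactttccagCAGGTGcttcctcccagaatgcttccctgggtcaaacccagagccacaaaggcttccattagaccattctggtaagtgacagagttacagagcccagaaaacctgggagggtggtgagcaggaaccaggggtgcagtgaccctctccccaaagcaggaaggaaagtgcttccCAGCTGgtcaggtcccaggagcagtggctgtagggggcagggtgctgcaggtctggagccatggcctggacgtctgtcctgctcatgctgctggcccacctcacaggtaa
Igll1: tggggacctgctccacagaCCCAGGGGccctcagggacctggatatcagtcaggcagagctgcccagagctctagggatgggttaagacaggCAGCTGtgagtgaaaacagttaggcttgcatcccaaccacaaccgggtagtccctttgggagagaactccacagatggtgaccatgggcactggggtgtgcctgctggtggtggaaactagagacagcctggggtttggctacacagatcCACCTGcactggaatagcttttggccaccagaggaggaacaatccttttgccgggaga
The Vpreb1 and Vpreb2 windows share a stretch of 156 bases, of which 153 (98.1%) were equal. The Vpreb1 window held CAGGTG at position -88 from the start, and the Vpreb2 window held CAGGTG at -232 and CAGCTG at -60. The stretch is offset by 144 bases between the windows, so the CAGGTG of both lies at the same place in it. The Igll1 window held CCCAGGGG at -231, CAGCTG at -158 and CAGGTG on the other strand, read as CACCTG, at -8. None of the capital stretches overlapped another. Of 32851 RefSeq promoter windows of the same length, 32.9% held at least 1 of the E-boxes and 13.7% held CCCNNGGG, so such matches are common and are given as description only. Since the Vpreb1 and Vpreb2 genes are close copies, reads may not tell them apart, and their separate levels below are uncertain to that extent.

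The whole CGG-Cit library held 10806 barcodes and 106173570 UMIs, and the CGG library 12527 barcodes and 92517884 UMIs. The median depth of the barcodes kept was 6232 UMIs in CGG-Cit and 3921 in CGG. Among the barcodes that were not pro-B cells, neutrophil markers summed to 107708 CPM (UMIs of a gene per 1e+06 UMIs of the class) in CGG-Cit and 47723 CPM in CGG, and mesenchymal markers to 845 CPM in CGG-Cit and 29231 in CGG. The libraries shared 34 barcode sequences, none of them a pro-B cell in both.

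The pro-B cells themselves were of like depth in both libraries. Their median was 4724 UMIs in CGG-Cit (range 1309 to 58493) and 4640 UMIs in CGG (range 960 to 75835), with 1945 and 1992 genes. Dntt had a median of 7 UMIs per cell in CGG-Cit and 6 in CGG, and Cd79a a median of 11 and 10. Exactly 2 Dntt UMIs, the least the rule allows, were found in 39 CGG-Cit and 14 CGG cells, 3 to 9 in 161 and 77 cells, and 10 or more in 107 and 36 cells.

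Genes that the rule did not use fitted the label. Vpreb1 was detected in 94.5% of the pro-B cells of either library, with a median of 19 UMIs in each. Igll1 was detected in 94.8% of them in CGG-Cit and 92.9% in CGG, and Ebf1, the factor that sets up the B cell programme, in 98.0% and 96.9%. In barcodes rich in neutrophil RNA, which should lack these genes and had medians of 6897.5 and 6315 UMIs, Vpreb1 was seen in 2.69% and 2.39% and Igll1 in 2.73% and 1.24%. Ebf1 was seen in more of them, 12.9% in CGG-Cit and 8.11% in CGG. The shares in pro-B cells were far above those.

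Other early B cell genes were found less often per cell. Pax5, which fixes B cell identity, was detected in 77.2% of CGG-Cit and 81.9% of CGG pro-B cells, and the interleukin 7 receptor gene Il7r in 63.2% and 63.0%. Rag1 was detected in 79.8% and 71.7%. S100a8, a neutrophil gene, was present in 98.7% of CGG-Cit and 95.3% of CGG pro-B cells at medians of 5 and 3 UMIs, and the source of this RNA was not tested. The T cell gene Cd3e was detected in 0.651% and 2.36%.

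Some pro-B barcodes carried much RNA of another cell class. By limits set after the data were seen, these were 36 CGG-Cit cells (11.7%, with 29.7% of the pro-B UMIs) and 18 CGG cells (14.2%, with 33.6% of the UMIs). Their median depth was 16879 UMIs in CGG-Cit and 12798.5 in CGG, against 4122 and 4549 for the other 271 and 109 pro-B cells. In CGG-Cit, 13 of them carried S100a8 and S100a9, 9 the plasmacytoid dendritic cell gene Siglech, 8 myeloid progenitor genes and 7 globins. In CGG, 5 carried collagens, 5 globins, 3 macrophage genes and 3 myeloid progenitor genes. One CGG barcode of 75835 UMIs held 1474 UMIs of the neutrophil granule genes Mpo, Elane, Prtn3 and Ctsg, and all other CGG pro-B cells together held 119. Values are given below with these barcodes and, where it matters, without them.

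**Figure D1:**
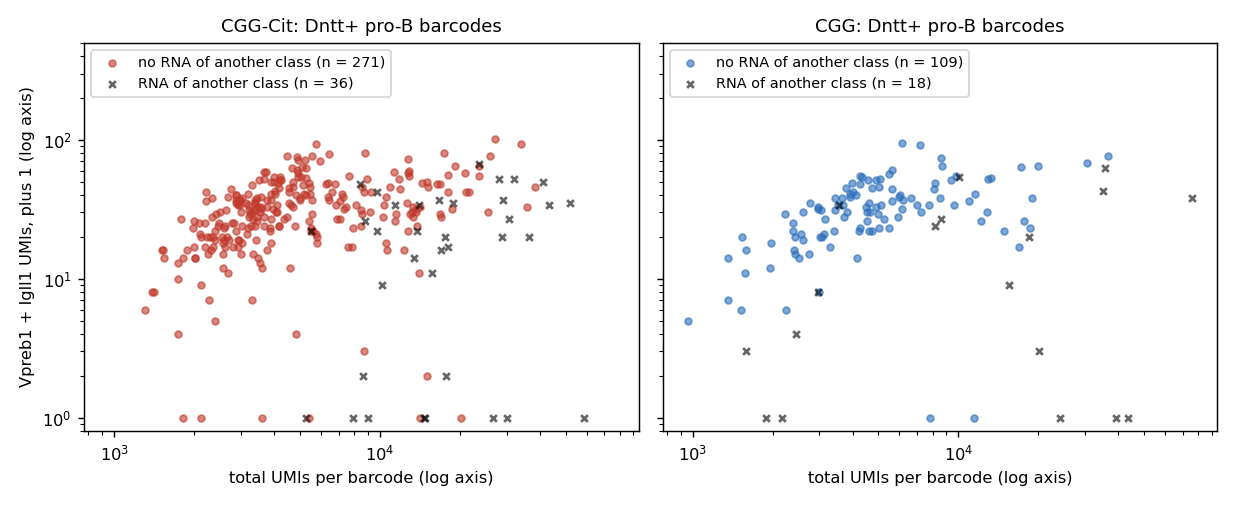
Surrogate light chain RNA in each Dntt-positive pro-B barcode. The x axis is total UMIs per barcode and the y axis is Vpreb1 plus Igll1 UMIs with 1 added, both on log axes. Crosses are the 36 CGG-Cit (left) and 18 CGG (right) barcodes that carry RNA of another class, and they lie mostly to the right, at high totals. The points along the bottom have no UMI of either gene.

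The edges of the rule can be described from the cells on either side. The 86 CGG-Cit and 60 CGG barcodes with only 1 Dntt UMI, Cd79a and no Ms4a1 had Vpreb1 at 796 and 604 CPM, against 2133 and 2705 CPM in the pro-B cells with exactly 2 Dntt UMIs. The 39 CGG-Cit and 30 CGG barcodes with at least 2 Dntt UMIs but neither Cd79a nor Ms4a1 were of another kind. Their Vpreb1 was at 6.08 and 23.7 CPM, while Siglech was at 416 and 720 CPM and Irf8, a dendritic cell factor, at 1238 and 1011 CPM. Among pro-B cells with a single Cd79a UMI, 9 in each library, 5 in CGG-Cit and 1 in CGG had 2 or more Siglech UMIs. The barcodes with Ms4a1, otherwise within the rule, numbered 20 in CGG-Cit and 5 in CGG.

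Dntt-positive pro-B cells took a larger share of the CGG-Cit library, but a smaller share of its early B cells as gated here. They were 2.92% of all barcodes in CGG-Cit (2.60 to 3.25%) and 1.03% in CGG (0.863 to 1.23%), a ratio of 2.82 and a difference of 1.88 percentage points (1.52 to 2.26). Later stages were set beside them with 3 gates on Dntt-negative cells with at least 2 Cd79a UMIs. Rag1-positive cells without Ms4a1, which include small pre-B cells, were 13.8% of barcodes in CGG-Cit and 2.35% in CGG, a ratio of 5.89. Cycling Rag1-negative cells, with at least 2 UMIs of the division genes Mki67 and Top2a, were 8.25% and 1.19%, a ratio of 6.94, and Ms4a1-positive cells were 8.91% and 3.77%, a ratio of 2.36. The pro-B cells were thus 2.82-fold more frequent in CGG-Cit while the Dntt-negative cells of the early gates were 5.89-fold and 6.94-fold more frequent. The gates were not screened for RNA of another class. In Rag1-positive cells neutrophil markers summed to 42801.5 CPM in CGG-Cit and 12817 CPM in CGG, and in cycling cells to 30427 and 12569 CPM. Erythroid markers summed to 50890 and 22010 CPM and to 25606 and 31646 CPM in the same gates. The part of such RNA in these shares was not tested.

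Among pro-B, Rag1-positive and cycling cells together, pro-B cells made up 11.7% in CGG-Cit (307 of 2630) and 22.6% in CGG (127 of 561). The difference of -11.0 percentage points (-14.8 to -7.45) was about as large when every barcode was thinned to 2000 UMIs, at 12.05% of 1685 cells in CGG-Cit and 23.5% of 310 in CGG (-11.5, -16.7 to -6.82). With the Ms4a1-positive cells added, pro-B cells were 8.60% in CGG-Cit and 12.4% in CGG. Of all barcodes with any Cd79a UMI they were 6.04% in CGG-Cit and 5.36% in CGG, and the interval of that difference, 0.682 percentage points, ran between -0.480 and 1.77. With at least 2 Cd79a UMIs asked for the shares were 6.78% in CGG-Cit and 9.04% in CGG, so the direction depended on the denominator.

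**Figure D2:**
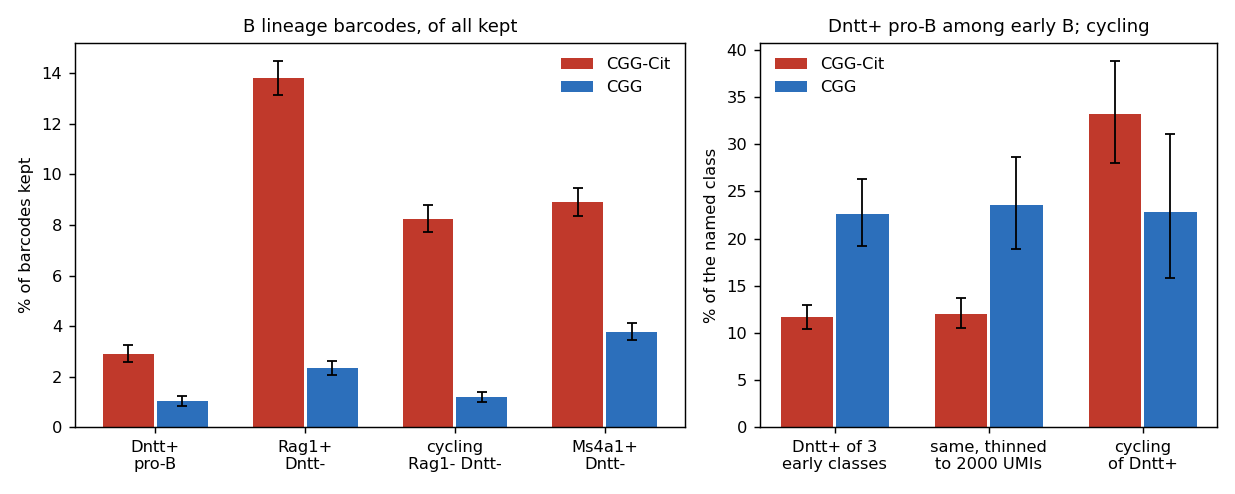
Shares of barcodes with exact 95% intervals (bars from 0, CGG-Cit left of CGG). The left panel gives Dntt-positive pro-B cells and the 3 Dntt-negative gates as % of barcodes kept, all higher in CGG-Cit. The right panel gives pro-B cells as % of pro-B, Rag1-positive and cycling cells, 11.7% in CGG-Cit and 22.6% in CGG, the same after thinning, and the % of pro-B cells that were cycling.

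Set against the unweighted mean of the 3 Dntt-negative gates, 211 of 8091 genes measured (2.61%) were at least 2-fold higher in pro-B cells in both libraries and 144 (1.78%) at least 2-fold lower. The counts were 505 and 328 after thinning every barcode to 2000 UMIs, and without the pro-B barcodes carrying RNA of another class 363 genes were lower. That setting left out pro-B barcodes only, and the part of such RNA in the gates in this count was not tested. Vpreb1 was at 2601 CPM in CGG-Cit and 2495 CPM in CGG pro-B cells, against a gate mean of 171 and 176 CPM, a fold of 15.1 and 14.1. Igll1 was at 1214 and 1247 CPM against 103 and 118 CPM (11.7-fold and 10.5-fold), and Vpreb2 at 81.6 and 88.8 CPM against 3.20 and 5.93 CPM. All 3 genes were lower in each single gate than in the pro-B cells. Vpreb3, which encodes a related partner of the early receptor chains, differed little, with 3408 and 2977 CPM in pro-B cells and log2 differences of 0.37 and 0.59.

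Of 25 B lineage factors measured, 3 were at least 2-fold higher in pro-B cells in both libraries and 4 lower. Lef1, a partner of beta-catenin that acts in early B cells, was at 565 and 644 CPM against 87.9 and 101 CPM. The ETS factor Erg was at 142 and 167 CPM against 5.96 and 11.4 CPM, a fold of 20.5 and 13.6. Tcf4, an E protein, was at 440 and 523 CPM against 158 and 218 CPM.

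The factors that were lower were Ikzf3, Spib, Irf4 and Bach2. Ikzf3, which encodes Aiolos, was at 7.16 CPM in CGG-Cit and 2.89 CPM in CGG pro-B cells, against 79.7 and 104 CPM in the gates. Spib was at 70.4 and 63.7 CPM against 305 and 278 CPM. Irf4, which in mice acts in the exit from division and the opening of light chain genes, was at 51.7 and 37.6 CPM against 140 and 154 CPM, and Bach2 at 203 and 145 CPM against 446 and 464 CPM. Without the barcodes carrying RNA of another class the Bach2 log2 difference was -0.87 in CGG-Cit and -1.21 in CGG. Ebf1 and Pax5 did not reach 2-fold, with log2 differences of 0.55 and 0.60 for Ebf1 and of -0.08 and -0.31 for Pax5.

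Receptor assembly genes gave 1 higher and 1 lower of 13 measured. Rag2 was at 107 CPM in CGG-Cit and 75.3 CPM in CGG pro-B cells, against gate means of 33.8 and 32.8 CPM. The Rag1-positive gate alone had 65.8 and 80.5 CPM, so in CGG the pro-B level was not above it. Polm, a polymerase of the same family as terminal transferase that acts on light chain joins in mice, went the other way. It was at 3.98 and 3.86 CPM in pro-B cells, on 10 and 4 UMIs, against 57.6 and 86.3 CPM in the Rag1-positive cells and 20.02 and 18.2 CPM in the cycling cells. The end-joining genes Xrcc6, Xrcc5, Lig4 and Dclre1c were within 2-fold in both libraries.

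Receptors of early progenitors were higher in pro-B cells. Flt3, the receptor of a lymphoid growth factor, was at 22.3 CPM in CGG-Cit and 22.2 CPM in CGG pro-B cells, against 1.89 and 2.70 CPM in the gates. Kit, the stem cell factor receptor, was at 34.2 and 47.3 CPM against 8.10 and 5.68 CPM, and the cytokine feedback gene Socs2 at 53.3 and 81.1 CPM against 14.2 and 28.3 CPM. Il7r was not higher, with log2 differences of 0.12 and -0.48. Of 14 early surface genes measured, 2 were at least 2-fold lower in both libraries, among them Ly6d, given below. Flt3, Kit and 2 more were at least 2-fold higher in both libraries. Spn (CD43) was at 95.5 and 86.8 CPM against 45.0 and 31.8 CPM and Bst1 (BP-3) at 97.1 and 99.4 CPM against 37.3 and 35.5 CPM. Without the barcodes carrying RNA of another class, Flt3 was at 16.4 CPM in CGG-Cit and 11.6 CPM in CGG.

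Surface genes of later B cells were lower, 7 of 13 measured by at least 2-fold in both libraries and none higher. Cd2 was at 11.5 CPM in CGG-Cit and 18.3 CPM in CGG pro-B cells, against 77.8 and 108 CPM. Il2ra, the CD25 gene that marks small pre-B cells in mice, was at 10.3 and 1.93 CPM against 51.7 and 57.3 CPM. Fcrla, an Fc receptor-like gene of B cells, was at 51.3 and 18.3 CPM against 424 and 370 CPM. Cd22, an inhibitory receptor gene, was at 7.96 and 1.93 CPM, on 20 and 2 UMIs, against 44.5 and 56.2 CPM. Ly6d, of the early surface list, was at 302 and 225 CPM against 1610 and 1410 CPM. The cycling gate alone had Ly6d at 179 and 159 CPM, below the pro-B cells as a whole. Without the barcodes of another class the pro-B level of Ly6d was 234 CPM in CGG-Cit and 131 CPM in CGG, so in CGG it was not above the cycling gate, and 1 barcode held 36.1% of the CGG UMIs. The cycling gate had Cd2 at 24.3 CPM in CGG-Cit but 15.1 CPM in CGG.

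Receptor signalling genes were mostly within 2-fold, with 1 higher and 4 lower of 15. Fyn, a kinase of the Src family, was at 58.9 and 78.2 CPM against 21.5 and 33.6 CPM, while Blk, the family member named for B cells, was at 21.5 and 11.6 CPM against 90.4 and 89.3 CPM. Lower too were Bank1 and Dok3, which encode adaptors, and the phosphatase gene Ptpn6. Of the S phase and G2 and M phase lists, none of 16 and 14 genes measured differed by 2-fold in both libraries. One gate was chosen by Mki67 and Top2a, so the gate mean of these lists is set in part by the gate rule. The G2 and M phase list, with Mki67 and Top2a, summed to 3711 CPM in CGG-Cit and 2465 CPM in CGG pro-B cells. It summed to 4804 and 2494 CPM in Rag1-positive, 6334 and 4685 CPM in cycling and 2163 and 1272 CPM in Ms4a1-positive cells.

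The genes with the widest gaps over the gates in both libraries included several that are not B cell classics. Mmrn1, an endothelial and platelet gene, was at 56.9 CPM in CGG-Cit and 60.8 CPM in CGG pro-B cells against 0.261 and 0.861 CPM. Arpp21, which encodes an RNA-binding phosphoprotein, was at 204 and 162 CPM against 2.87 and 4.73 CPM, and Dlg2, a scaffold gene, at 66.9 and 63.7 CPM against 1.34 and 0.555 CPM. Myl10, a myosin light chain gene, was at 54.1 and 124 CPM against 1.21 and 1.40 CPM. Over all other barcodes Mmrn1 was at 0.774 CPM in CGG-Cit and 0.900 CPM in CGG, and Arpp21 at 1.67 and 1.05 CPM, so both were rare outside the pro-B cells. The other wide gaps upward were those of Adgrg1, Frmd6 and Gm30948.

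Downward, Jchain, the antibody joining chain gene of plasma cells, was at 5.57 and 3.86 CPM in pro-B cells against 441 and 615 CPM in the gates. The Rag1-positive gate of CGG had only 3.32 CPM of it, so the Jchain gap was not present against every gate. Scd1, Fcmr, Ccr7 and Tnfrsf13c were low in pro-B cells and highest in Ms4a1-positive cells. Fcmr, the IgM receptor gene, was at 4.38 and 0.965 CPM in pro-B cells, against 279 and 256 CPM in Ms4a1-positive cells. Myl4 and Gm43291 were lower in pro-B cells than in each of the gates in both libraries.

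Among metabolic and chromatin genes, few set pro-B cells apart. None of 20 tricarboxylic acid cycle genes, 16 glycolysis genes or 25 oxidative phosphorylation genes differed by 2-fold in both libraries. Slc25a1, the mitochondrial citrate carrier, was the 1 exception of 5 citrate and acetyl-CoA genes, at 47.8 CPM in CGG-Cit and 63.7 CPM in CGG pro-B cells, against 19.4 and 23.1 CPM in the gates. Of the deacetylases, Hdac7 was at 119 and 157 CPM against 55.5 and 69.2 CPM and the mitochondrial Sirt3 at 25.5 and 28.0 CPM against 8.73 and 9.58 CPM. Bcl2l11, which encodes the death-promoting protein Bim, was at 67.6 and 165 CPM against 31.6 and 57.6 CPM.

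**Figure D3:**
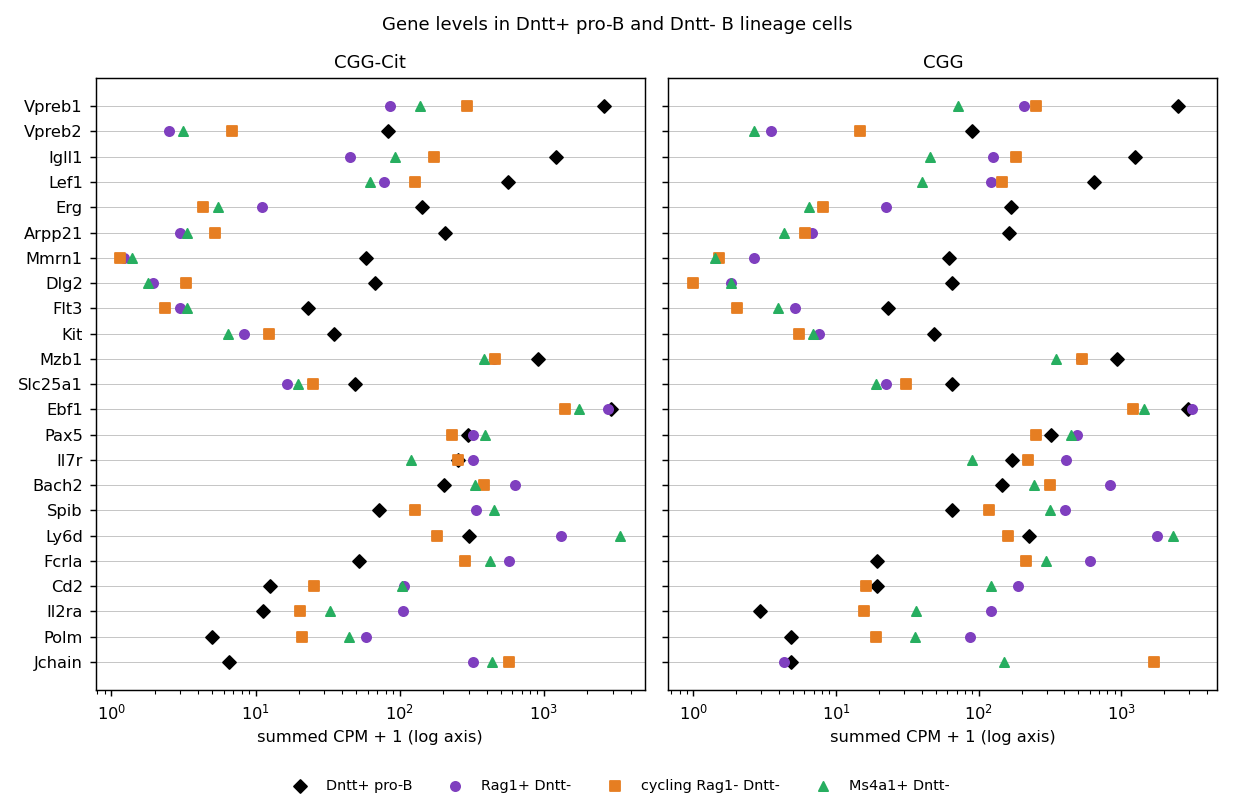
Levels of selected genes in Dntt-positive pro-B cells (diamonds) and the 3 Dntt-negative gates, as summed CPM with 1 added on a log axis, CGG-Cit left and CGG right. Vpreb1, Vpreb2, Igll1, Lef1, Erg, Arpp21, Mmrn1, Dlg2, Flt3, Kit, Mzb1 and Slc25a1 have the diamond farthest right in both libraries. Bach2, Spib, Fcrla, Il2ra and Polm have it farthest left in both.

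Of 8073 genes measured, 132 (1.64%) were at least 2-fold higher in CGG-Cit pro-B cells and 456 (5.65%) at least 2-fold lower, with a median log2 ratio of -0.04 over all. Of the 132, 45 (34.1%) were also at least 2-fold higher in CGG-Cit among all other barcodes, and of the 456, 378 (82.9%) were also at least 2-fold lower there. Over all genes measured those shares were 5.77% and 12.3% among the other barcodes. For 92 of the 456 genes, 1 barcode held at least 50% of the UMIs. Without the barcodes carrying RNA of another class, 197 of 7810 genes (2.52%) were higher and 232 (2.97%) lower. With every cell weighted equally, 332 were higher and 496 lower. The part that free or foreign RNA has in each gene's difference was not tested.

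The identity genes were close between the hydrogels. None of 7 surrogate light chain and receptor genes, 24 B lineage transcription factors, 14 receptor signalling genes or 13 receptor assembly genes differed by 2-fold. The CGG-Cit over CGG ratio was 1.04 for Vpreb1 (0.996 to 1.09), 0.973 for Igll1 (0.912 to 1.04) and 0.988 for Ebf1 (0.947 to 1.03). Smaller differences beyond counting error were present. Cd79b was at 739 CPM in CGG-Cit and 536 CPM in CGG (ratio 1.38, 1.25 to 1.52), Rag2 at 107 and 75.3 CPM (1.43, 1.11 to 1.86) and Il7r at 250 and 172 CPM (1.46, 1.23 to 1.73). Lower in CGG-Cit was Id3, an inhibitor of E proteins, at 192 and 300 CPM (0.640, 0.554 to 0.741). Id3 was also lower in CGG-Cit over all other barcodes, at 64.7 and 391 CPM.

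Most genes of the S phase and of the G2 and M phase lists were higher in CGG-Cit pro-B cells, and none of them differed by 2-fold. All 16 G2 and M phase genes had a ratio above 1, 14 of them with an interval above 1, and their sum was 3711 CPM in CGG-Cit and 2465 CPM in CGG (ratio 1.51, 1.44 to 1.57). Of 16 S phase genes, 14 had a ratio above 1, 8 an interval above 1 and 1 an interval below 1, with sums of 2464 and 1993 CPM (1.24, 1.18 to 1.30). Mki67 was at 633 CPM in CGG-Cit and 395 CPM in CGG. The list of cyclins and inhibitors was mixed, with 8 of 12 genes above 1, 3 intervals above 1 and 3 below 1. Its Ccnd3, the cyclin that dividing B precursors depend on, was at 412 and 235 CPM (1.75, 1.52 to 2.02). Ccnd2 ran the other way, at 85.6 CPM in CGG-Cit and 157 CPM in CGG (0.544, 0.442 to 0.671). In pro-B cells with at least 2 Mki67 and Top2a UMIs, Ccnd2 was at 90.3 CPM in CGG-Cit and 180 CPM in CGG. Without the barcodes of another class these values were 91.0 and 99.2 CPM. In cells with no such UMI Ccnd2 was at 59.9 and 94.5 CPM, and at 65.7 and 89.8 CPM without those barcodes. Ccnd1 was at least 2-fold lower, at 23.5 CPM in CGG-Cit and 56.9 CPM in CGG. The G2 and M phase sum was also higher in CGG-Cit among all other barcodes, at 2965 and 1077 CPM, and without the barcodes of another class the pro-B sums were 3773 and 2647 CPM.

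Several of the highest ratios by the rule for named genes belonged to replication. Tk1, thymidine kinase, was at 60.1 CPM in CGG-Cit and 17.4 CPM in CGG pro-B cells (ratio 3.46, 2.12 to 6.00). The linker histone genes Hist1h1b and Hist1h1a were at 687 and 314 CPM (2.19, 1.94 to 2.47) and at 104 and 43.4 CPM (2.40, 1.74 to 3.37). Hirip3, a histone chaperone gene, was at 109 and 47.3 CPM. Each of these was also higher in CGG-Cit among all other barcodes, for Tk1 at 53.4 and 22.9 CPM and for Hist1h1b at 446 and 122 CPM. 2810417H13Rik and Stmn1 were 1.75-fold and 1.68-fold higher. After thinning to 2000 UMIs the Hist1h1b log2 ratio was 0.58, under 2-fold. The RNA silencing gene Tnrc6c was at 138 and 59.8 CPM.

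H2-Q7 and H2-Q6, class I genes of the major histocompatibility complex, differed in the opposite direction to the other barcodes. H2-Q7 was at 207 CPM in CGG-Cit and 91.7 CPM in CGG pro-B cells (ratio 2.26, 1.81 to 2.84), and H2-Q6 at 116 and 54.0 CPM (2.14, 1.61 to 2.91). Over all other barcodes both ran the other way, H2-Q7 at 121 CPM in CGG-Cit and 191 CPM in CGG, and H2-Q6 at 55.9 and 97.4 CPM. With 1 Dntt UMI allowed the H2-Q7 log2 ratio was 0.75 and the H2-Q6 log2 ratio 0.83, both under 2-fold. Without the barcodes of another class the H2-Q7 ratio was 2.80 (2.11 to 3.78). The 2 genes are near copies, and reads may not tell them apart, so their separate levels are uncertain to that extent.

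A small group of genes was lower in CGG-Cit pro-B cells with and without the barcodes of another class. Ldlrad4, an inhibitor of TGF-beta signalling, was at 25.9 CPM in CGG-Cit and 74.3 CPM in CGG (ratio 0.348, 0.246 to 0.491). Bcl2l11 was at 67.6 and 165 CPM (0.410, 0.330 to 0.510), and Skil, another brake on TGF-beta signalling, at 86.4 and 187 CPM (0.461, 0.378 to 0.563). These 3 were also lower in CGG-Cit over all other barcodes, Bcl2l11 at 32.4 and 65.3 CPM. The Bcl2l11 log2 ratio of -1.29 rested in part on 1 barcode with 22.2% of the CGG UMIs, and it fell short of 2-fold under several settings. It was -0.77 with at least 2 Cd79a UMIs asked for, -0.60 after thinning and -0.93 with every cell weighted equally. Myl10 was at 54.1 CPM in CGG-Cit and 124 CPM in CGG (0.435, 0.339 to 0.558), though at 1.44 and 0.681 CPM over all other barcodes, where it was hardly present. After thinning to 2000 UMIs the Myl10 log2 ratio was 0.29, so its direction turned under that setting, and the cause was not tested. Ppargc1a, a coactivator of mitochondrial genes, was at 13.03 and 64.0 CPM without the barcodes of another class (0.204, 0.117 to 0.345), and at 0.402 and 0.615 CPM over all other barcodes.

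Without those barcodes the same rule also named Kif20b, Kif23, Atad2, Iqgap2 and Ifi27l2a as higher in CGG-Cit. Kif20b and Kif23, motor genes of cell division, were at 92.9 CPM in CGG-Cit and 29.1 CPM in CGG and at 67.4 and 23.3 CPM. Lower were Dusp16, Gcnt1, Spata13, Fryl, Ifngr2, Rel and Rps28. The ribosomal gene Rps28 was at 2409 CPM in CGG-Cit and 3804 CPM in CGG (0.633, 0.603 to 0.665), and at 1515 and 1967 CPM over all other barcodes. Rel, a subunit of NF-kappa-B, was at 98.0 and 183 CPM.

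Other named genes came from few barcodes. All 228 Gzmc UMIs in CGG-Cit lay in 1 barcode, against none in CGG, where the limit of 3 UMIs makes it at least 31.3-fold higher. Siglech was at 68.4 CPM in CGG-Cit and 14.5 CPM in CGG, and at 0 in both once the barcodes of another class were left out, which follows from their choice, since a barcode with 2 or more Siglech UMIs counts as one of them. Cox6a2, also a plasmacytoid dendritic cell gene, was then at 4.53 CPM in CGG-Cit and 4.36 CPM in CGG. On the low side, Retnla had no UMI in CGG-Cit and 116 in CGG, of which 91.4% lay in 1 barcode, and is at least 93.8-fold lower by the same limit. Lyz1, Pi16 and Itih5 had 98.3%, 94.8% and 90.6% of their CGG UMIs in 1 barcode. Elane and Mpo had 97.5% and 92.7%, and Cd55 66.7%. Without the barcode holding most of their UMIs, Elane was higher in CGG-Cit, by 2.40 on the log2 scale. Without the barcodes of another class, Itih5 was higher by 0.69 and Mpo by 1.47. Gm12840 was at 9.55 CPM in CGG-Cit and 52.1 CPM in CGG, with 42.6% of its CGG UMIs in 1 barcode. Without the barcodes of another class it was at 5.66 CPM in CGG-Cit and 8.72 CPM in CGG, a ratio of 0.649 (0.214 to 2.17) that no longer reached 2-fold.

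Class II genes and the heat shock genes Hspa1a and Hspa1b were lower in CGG-Cit among the pro-B cells and among the other barcodes. Class II genes of the major histocompatibility complex summed to 370 CPM in CGG-Cit and 2247 CPM in CGG pro-B cells, with 5 of 8 at least 2-fold lower, and to 834 and 4056 CPM over all other barcodes. H2-Aa, for example, was at 24.7 CPM in CGG-Cit and 340 CPM in CGG. H2-Oa and H2-Ob, whose products act in B cells, were at 19.5 and 23.2 CPM and at 83.2 and 81.1 CPM, close to equal. Of 17 interferon response genes 9 were at least 2-fold lower in CGG-Cit, and 1 of 14 without the barcodes of another class, where the sum was 1432 CPM in CGG-Cit and 1048 CPM in CGG. That sum was led by Ifi27l2a, at 916 and 522 CPM. Hspa1a was at 1.99 CPM in CGG-Cit and 124 CPM in CGG pro-B cells, and at 5.88 and 169 CPM elsewhere. These were 2 of 11 heat shock genes measured, of which 7 had a ratio above 1, and the sum of the list had a ratio of 1.01. Of 16 immediate early genes 3 were at least 2-fold lower, and 1 without the barcodes of another class. Their sum had a ratio of 0.827 (0.7996 to 0.855) over all pro-B cells and of 1.09 (1.04 to 1.15) without those barcodes, so its direction turned.

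RNA of other classes differed between the libraries inside the pro-B barcodes too. Neutrophil markers summed to 34020 CPM in CGG-Cit and 15457 CPM in CGG pro-B cells, with 9 of 10 at least 2-fold higher, and to 5028 and 1785 CPM without the barcodes of another class. Without predicted doublets the median log2 ratio of the neutrophil markers was -1.84, against 1.39 over all pro-B cells, so this direction turned as well. Erythroid markers were at 25229 and 3723 CPM, then at 3489 and 2574 CPM. Mesenchymal markers ran the other way, at 27.1 CPM in CGG-Cit and 5366 CPM in CGG, with 7 of 7 at least 2-fold lower, then at 31.7 and 1182 CPM. Markers of monocytes and macrophages were at 2119 and 3854 CPM. Their part in the gene differences was not tested.

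Some genes that were low in pro-B cells against the gates were higher in CGG-Cit pro-B cells. Fcrla was at 51.3 CPM in CGG-Cit and 18.3 CPM in CGG (ratio 2.80, 1.72 to 4.80) and Myl4 at 58.9 and 20.3 CPM (2.91, 1.83 to 4.83). Gm43291 was at 21.5 and 1.93 CPM (11.1, 2.94 to 94.3), on 54 UMIs in CGG-Cit and only 2 in CGG. Without the barcodes of another class its ratio was 6.82 (1.75 to 58.5). Over all other barcodes Fcrla was at 128 CPM in CGG-Cit and 28.0 CPM in CGG and Myl4 at 164 and 26.9 CPM, and the part of free RNA in this was not tested. Receptor and signalling genes with a 2-fold difference downward were Socs3, Tgfbr2 and Cd34. Tgfbr2, a TGF-beta receptor gene, was at 33.8 CPM in CGG-Cit and 79.1 CPM in CGG pro-B cells, and at 27.4 and 188 CPM over all other barcodes. Without the barcodes of another class the Tgfbr2 ratio was 0.870 (0.558 to 1.39). Cd34, a progenitor surface gene, was at 20.3 and 90.7 CPM, and detected in 3.91% of CGG-Cit and 11.8% of CGG pro-B cells. One CGG barcode held 51.1% of its CGG UMIs, and without the barcodes of another class Cd34 was at 5.66 CPM in CGG-Cit and 10.2 CPM in CGG (0.557, 0.191 to 1.72).

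Genes of citrate use were given because one of the hydrogels has Cit in its name. The plasma membrane citrate carrier gene Slc13a5 and Slc13a2 had no UMI in the pro-B cells of either library, and Slc13a3 had 0 in CGG-Cit and 2 in CGG, with a limit of 1.19 CPM in CGG-Cit and 2.89 CPM in CGG. Acly, which makes acetyl-CoA out of citrate in the cytosol, was at 48.5 CPM in CGG-Cit and 78.2 CPM in CGG (ratio 0.621, 0.465 to 0.833). Slc25a1 was at 47.8 and 63.7 CPM (0.750, 0.551 to 1.03). The median log2 ratio of the citrate and acetyl-CoA genes measured was -0.32 over all pro-B cells and 0.015 without the barcodes of another class. The sum of the list had a ratio of 0.751 (0.639 to 0.884), and of 0.798 (0.661 to 0.967) without them. Over all other barcodes the list summed to 103 CPM in CGG-Cit and 122 CPM in CGG. None of the 5 genes measured in this list, nor of 20 tricarboxylic acid cycle genes, 15 glycolysis genes, 25 oxidative phosphorylation genes, 13 histone acetyltransferases or 12 deacetylases, differed by 2-fold.

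**Figure D4:**
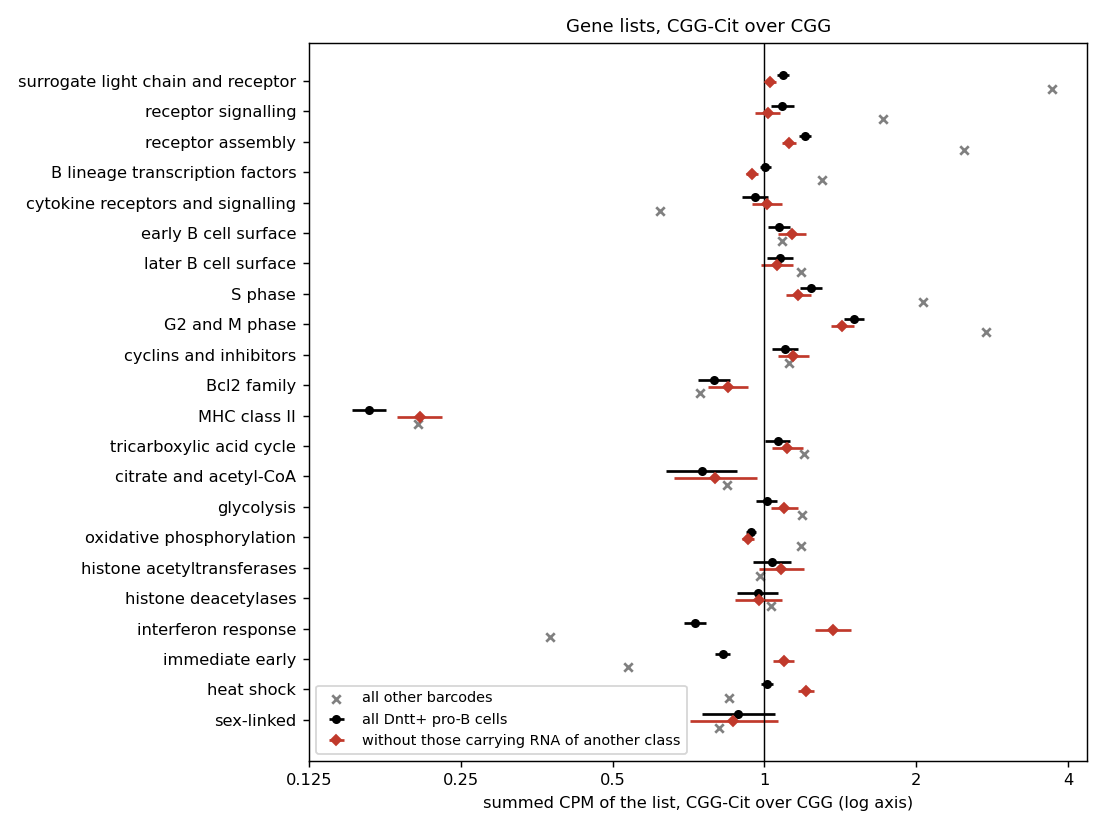
Summed CPM of gene lists in Dntt-positive pro-B cells as the ratio of CGG-Cit over CGG on a log axis, with 95% counting intervals, for all pro-B cells (black) and without barcodes that carry RNA of another class (red diamonds). Grey crosses give all other barcodes. MHC class II lies far left in all 3, the G2 and M phase list right of 1 in all 3, and the interferon list lies left of 1 with and right of 1 without those barcodes.

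Dividing cells were found among the pro-B cells of both libraries. Cells with at least 2 UMIs of Mki67 and Top2a together were 102 of 307 in CGG-Cit (33.2%, 28.0 to 38.8%) and 29 of 127 in CGG (22.8%, 15.9 to 31.1%), a difference of 10.4 percentage points (0.910 to 18.8). After thinning to 2000 UMIs, with 16 CGG-Cit and 11 CGG cells too shallow, the shares were 26.1% in CGG-Cit and 13.8% in CGG, a difference of 12.3 points (3.51 to 19.7). Without the barcodes of another class they were 29.2% and 21.1%, and the interval of the difference, -1.92 to 16.8 points, included 0. The Rag1-positive gate differed the same way, with 28.9% cycling in CGG-Cit and 15.97% in CGG, but the Ms4a1-positive gate had 10.1% and 10.8%.

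The split into cycling and non-cycling cells by 2 or more and 0 UMIs of Mki67 and Top2a also sorts barcodes by depth. In cycling cells the median was 13031.5 UMIs in CGG-Cit and 12803 UMIs in CGG, against 3409 and 3706 UMIs in the 167 CGG-Cit and 73 CGG cells with no Mki67 or Top2a UMI. Of the cycling cells, 79 of 102 in CGG-Cit and 23 of 29 in CGG carried no RNA of another class. The part of depth in what follows was not tested. Of 5500 genes measured, 407 (7.4%) were at least 2-fold higher as CPM in cycling than in non-cycling cells of both libraries and 363 (6.6%) lower. The highest were division genes related to the rule itself, such as Nusap1, Tpx2 and Ube2c. Hmgb2, a chromatin protein gene that also helps the Rag proteins, was at 4589 CPM in cycling and 783 CPM in non-cycling CGG-Cit cells, and at 4469 and 744 CPM in CGG. Ccnd3 was at 529 and 215 CPM in CGG-Cit and at 349 and 126 CPM in CGG, and Ldha, a glycolysis enzyme gene, was higher in cycling cells by 2.84-fold in CGG-Cit and 2.99-fold in CGG.

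Vpreb1 and Igll1 were lower in cycling cells as CPM but not per cell. Vpreb1 was at 1466 CPM in cycling and 4749 CPM in non-cycling CGG-Cit cells and at 1309 and 4501 CPM in CGG. Per cell the means were 22.8 UMIs in cycling and 19.9 in non-cycling CGG-Cit cells, and 24.03 and 19.6 UMIs in CGG. Igll1 was at 675 and 2272 CPM in CGG-Cit, but at 10.5 and 9.54 UMIs per cell. Vpreb2 differed, with 0.480 and 0.683 UMIs per cell in CGG-Cit and 0.793 and 0.630 in CGG.

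Rag1 was at 145 CPM in cycling and 700 CPM in non-cycling CGG-Cit cells (ratio 0.207, 0.177 to 0.243) and at 115 and 482 CPM in CGG (0.238, 0.174 to 0.322). Per cell it was at 2.25 and 2.94 UMIs in CGG-Cit and at 2.10 and 2.10 UMIs in CGG. Xrcc6, an end-joining gene, was at 139 and 519 CPM in CGG-Cit and at 90.1 and 422 CPM in CGG, with 2.16 and 2.18 UMIs per cell in CGG-Cit and 1.66 and 1.84 in CGG. By contrast Pax5 and Il7r had more UMIs per cycling cell, 3.89 and 1.55 for Pax5 and 3.68 and 1.08 for Il7r in CGG-Cit. In CGG the Il7r means were 2.14 and 1.01 UMIs. As CPM over all pro-B cells neither gene was higher in cycling cells. The cycling over non-cycling ratio of Pax5 was 0.679 (0.579 to 0.797) in CGG-Cit and 0.474 (0.373 to 0.601) in CGG. For Il7r it was 0.923 (0.770 to 1.11) in CGG-Cit and 0.499 (0.350 to 0.709) in CGG.

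**Figure D5:**
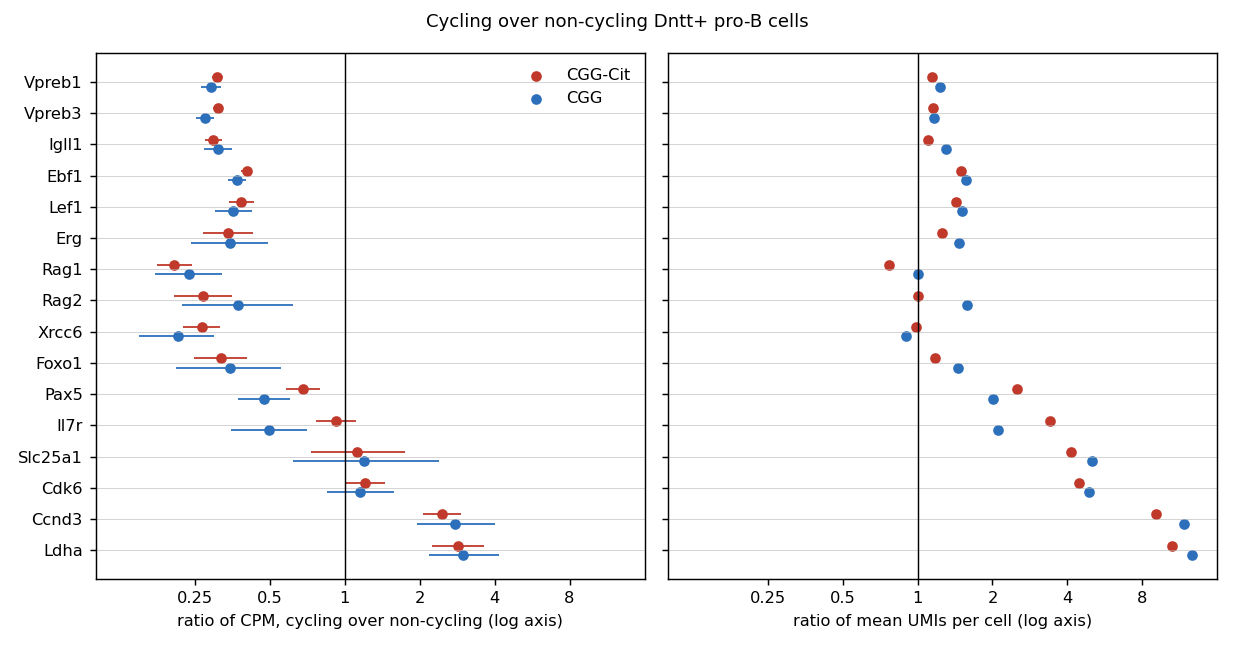
Cycling over non-cycling Dntt-positive pro-B cells for 16 genes, CGG-Cit (red) above CGG (blue) in each row. The left panel is the ratio of CPM with 95% counting intervals and the right panel the ratio of mean UMIs per cell, both on log axes. Vpreb1, Igll1, Rag1 and Xrcc6 lie well left of 1 by CPM and near 1 per cell.

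The cells without RNA of another class were also described by their amount of Dntt. The rule asks for at least 2 Dntt UMIs, so only cells of higher totals can have a low Dntt share, and the order of depth, CPM and cycling along the bins follows in part from how they were made. By Dntt UMIs per 10000 UMIs, the bins under 5, of 5 to 15 and of 15 or more held 25, 106 and 140 CGG-Cit cells and 7, 47 and 55 CGG cells. Vpreb1 was higher along the bins as CPM, at 1645, 3146 and 4657 CPM in CGG-Cit, but stayed flat per cell, at 23.1, 22.7 and 21.7 UMIs, and in CGG at 21.9, 22.02 and 21.8 UMIs. The lowest bin held 7 CGG cells only. The share of cycling cells was 52.0%, 33.0% and 22.1% along the bins in CGG-Cit and 71.4%, 25.5% and 10.9% in CGG. Rag1 per cell was 1.48, 2.22 and 3.27 UMIs along the bins in CGG-Cit, while in CGG it was 2.43, 2.43 and 2.27 UMIs. Total UMIs were lower along the same bins, with means of 14033, 7200 and 4655 UMIs in CGG-Cit and 14673, 7252 and 4443 UMIs in CGG, and no test was made of the bins.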

How the data were processed

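Single-cell RNA was measured in 2 droplet libraries, 1 per hydrogel, prepared after digestion in 0.3% collagenase and a 70 µm strainer, per the labels' protocols. The authors deposited UMI counts per gene and barcode, not normalized. The matrices name Cell Ranger 4.0.0, per the file headers, while the submitters' processing notes name version 3.0 and mm10. The labels leave the kit version unspecified. The chemistry reads transcript ends, so isoforms were not told apart. The 6 immunoglobulin constant genes of the lists were not analysed here.

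Members and gene lists were chosen with earlier results of these data known. Of the barcodes, 236 in CGG-Cit and 56 in CGG had under 200 genes, and 39 and 192 had over 20% mitochondrial UMIs. Counts were summed per library and class and scaled to CPM. Intervals are exact Poisson for levels, exact conditional binomial for ratios, Clopper-Pearson for shares and Newcombe for differences, at 95%. They cover counting error only, since cells of 1 library are not replicates. A gene was measured between hydrogels with at least 20 UMIs in both libraries together and a mean of 10 CPM, and was counted as different at 2-fold with 0.5 UMI added. Stage differences used 1 CPM added and had to reach 2-fold in both libraries. For genes without a UMI, 3 UMIs set the limit.

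Genes were named by rule. Between hydrogels these were the 12 highest and 12 lowest by the interval bound nearest to 1, where the library with the higher level had 30 UMIs and 50 CPM or more, not below all its other barcodes. By stage they were the 12 highest and 12 lowest by the smaller difference, with at least 50 CPM. Genes of the lists were added by role. The same rule without barcodes of another class was added after the data were seen. That class had at least 5% globin UMIs, 10% S100a8 and S100a9, 10 UMIs of Mpo, Elane, Prtn3 and Ctsg, 2 of Siglech, 1% collagens, 1% macrophage genes or 3 UMIs of Cd3e and Cd3d. Neutrophil-rich barcodes had at least 15% S100a8 and S100a9. Doublets were kept, and Scrublet calls at 0.8% per 1000 barcodes, 887 in CGG-Cit and 1206 in CGG, with 43 and 12 pro-B cells among them, were removed as an alternative. Other alternatives changed the thresholds, depth by thinning to 2000 UMIs, scaling, cell weights and the low-count filter. The scripts were checked on simulated data. Python 3.11.15, numpy 2.4.6, scipy 1.17.1, pandas 2.3.3, scanpy 1.11.5, anndata 0.12.19 and matplotlib 3.10.9 were used.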

Additional observations from a re-analysis of the deposited data

Results flagged for a closer look

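The genes Nkg7, Prtn3, Elane, Ctsg, Mpo and Ms4a3 of the myeloid progenitor and T and NK cell marker lists stood on opposite sides of the Dntt-negative gates in the pro-B cells of the libraries. The log2 difference of pro-B cells over the gates was -1.06 in CGG-Cit and 1.46 in CGG for Nkg7, -1.33 and 1.19 for Prtn3, and -2.12 and 2.38 for Elane. It was -1.34 in CGG-Cit and 1.60 in CGG for Ctsg, -1.69 and 1.72 for Mpo, and -1.86 and 1.59 for Ms4a3. They were singled out because the direction differed between the libraries, and that difference was not tested. One CGG-Cit barcode held 888 UMIs of Mpo, Elane, Prtn3 and Ctsg, and the other CGG-Cit pro-B cells 793, while one CGG barcode held 1474 and the other CGG pro-B cells 119. Without the barcodes carrying RNA of another class the differences were -4.05 in CGG-Cit and -2.74 in CGG for Elane, -3.75 and -3.22 for Mpo, -3.71 and -3.36 for Prtn3, -3.37 and -3.44 for Ctsg, and -3.32 and -1.94 for Ms4a3, on the same side in both libraries. Nkg7, at -1.31 in CGG-Cit and 1.02 in CGG, stayed on opposite sides. For Mpo, Elane, Prtn3 and Ctsg the lower values follow in part from the choice, since 10 UMIs of these genes marked a barcode for removal. The gates were not cleared in this way and still held Elane at 745 CPM in CGG-Cit and 102 CPM in CGG. Nothing is therefore concluded from the shared side of the libraries.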

How the results depend on the processing

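No paired analysis was possible because each hydrogel has 1 library and the labels give no replicate numbers. With 1 library per group no setting carries a test, and genes under 20 UMIs were not measured between hydrogels. Thinned to 2000 UMIs, the share of Dntt-positive pro-B barcodes differed by 1.41 percentage points, 260 genes were at least 2-fold higher in CGG-Cit and 125 lower, and 505 were higher and 328 lower in pro-B cells than in the gates. Weighting each cell equally gave 332 higher and 496 lower, against 132 and 456 by summed CPM. Without a filter beyond 1 UMI, 1068 genes were higher, and the number of genes at least 2-fold lower in CGG-Cit members of the pro-B class was 2742, and 252 with at least 50 UMIs required. Without pro-B barcodes carrying RNA of another class 232 were lower in CGG-Cit and 363 lower than in the gates, and without predicted doublets 219 were lower than in the gates.

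Some log2 ratios of CGG-Cit over CGG changed sign. After thinning they were 0.85 for Cd55, 0.29 for Myl10, 1.27 for Elane, 3.65 for Mpo, and as medians 0.82 for interferon response genes, 1.27 for myeloid progenitor markers and 0.47 for mature B cell markers. Without barcodes of another class they were 0.69 for Itih5, -0.080 for Cox6a2, 1.54 for Elane, 1.47 for Mpo and 1.44 for the myeloid progenitor median. With cells weighted equally they were 0.088 for Elane, 0.16 for Mpo and 0.16 for the myeloid progenitor median, and without the barcode holding most UMIs of the gene 2.40 for Elane and 0.9997 for the Mpo log2 ratio. Without predicted doublets the neutrophil median was -1.84, and without the filter the mature B cell median was 0.29. The cause was not tested. Gzmc had no value under several settings, and Siglech none without barcodes of another class.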
